A study of Mus musculus with 6 samples.

Results

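The genes described here are those of the cytosolic ribosomal proteins, taken as every probeset of the array that is annotated with exactly 1 gene symbol beginning with Rpl or Rps and a digit, or Rplp0, Rplp1, Rplp2, Rpsa or Fau, without the symbols containing -ps and without the S6 kinases. The rule used names only and no measured value. It took 112 of the 41345 probesets on the array, which belonged to 70 genes: 42 named for the large subunit and 28 for the small subunit. Of these, 59 are genes of the ribosome itself, and the other 11 are paralogs, retroposed copies or proteins with a related name. From a catalogue of 79 cytosolic ribosomal protein genes, 20 were not measured by a probeset of their own; 12 of those, among them Rpl10, Rpl12 and Rps2, shared every named probeset with another symbol. Within a tolerance of 0.0001 log2 units on every array, 7 of the probesets repeated another one of the same gene.

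The study measured RNA from let7g-transgenic mouse blastocysts on 6 Mouse Gene 2.0 ST arrays, with 2 arrays in each of 3 groups. DOX-7g were blastocysts made dormant in vitro, on day 7, by let-7 induced with DOX. Dor-7g were blastocysts dormant in vivo on day 7, and D4-act-7g were blastocysts activated on day 4. All 3 groups carry the let-7g transgene, and day and dormancy both separate DOX-7g and Dor-7g from D4-act-7g, so the part of each cannot be told apart. For DOX-7g, culture and DOX are added to these. RNA was released by heat in water from 10 blastocysts of each group, and the labels leave unsaid whether replicate arrays are separate collections, so p-values measure the spread between these arrays, which may be technical. The labels name no promoter for the transgene.

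Ribosomal proteins are joined with ribosomal RNA in the nucleolus to build the small subunit, which reads the mRNA, and the large subunit, which forms the peptide bond. Their mRNAs are among the most abundant of growing cells and begin with a run of pyrimidines, the terminal oligopyrimidine (TOP) element, through which the kinase mTOR and the protein Larp1 control their translation and stability. Diapause is a reversible arrest of the blastocyst in which growth and protein synthesis are low. In mouse, many ribosomal protein genes have processed pseudogenes with nearly the same sequence, so a probeset may also measure a copy, and values of genes with such copies are uncertain.

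The windows below show the start region of genes to which the results return, as RefSeq gives it on GRCm38.p6: 15 bases before the annotated start and 15 from the start on. The letters in capitals mark the longest run of a C followed by at least 4 C or T in the window. Rps16, Rpl34 and Rpl26 are shown because they fell in Dor-7g, Rpl27a and Rplp2 because they had large differences, and Fau and Rps6 because their brightest probesets scarcely moved.
Rps16, chr7:28350674-28350703, plus strand: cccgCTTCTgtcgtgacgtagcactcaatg
Rpl34, first start, chr3:130730384-130730413, minus strand: cgCCTTCCCTgacgtacttcctgtccggcg
Rpl34, other start, chr3:130730323-130730352, minus strand: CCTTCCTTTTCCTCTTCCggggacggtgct
Rpl26, chr11:68901551-68901580, plus strand: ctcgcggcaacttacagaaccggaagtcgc
Rpl27a, chr7:109519180-109519209, plus strand: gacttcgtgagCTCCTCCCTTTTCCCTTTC
Rplp2, chr7:141447636-141447665, plus strand: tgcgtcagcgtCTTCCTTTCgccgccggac
Fau, chr19:6057932-6057961, plus strand: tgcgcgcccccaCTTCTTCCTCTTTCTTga
Rps6, chr4:86857353-86857382, minus strand: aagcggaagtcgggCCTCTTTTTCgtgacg
The run crosses the annotated start in Rpl27a, Rplp2, Fau, Rps6 and the other start of Rpl34, lies before it in Rps16 and the first start of Rpl34, and is not in the window of Rpl26. RefSeq starts need not be the starts used in a blastocyst, so a missing run says only that these letters are not in this window.

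Of 70 genes, 55 had a start region in the RefSeq table, and 46 of these were genes of the ribosome itself. A C followed by at least 4 C or T on the coding strand, within 20 bases of the start, was found for 36 of the 46 genes (78.3%), against 49.9% of the 27025 genes in the whole table. The letters CCGGAAG, which Ets family factors such as Gabpa are known to bind, were found on either strand between 250 bases before and 50 after the start for 21 of the 46 genes (45.7%), against 9.9% of all genes. GGGCGG, known from Sp1 sites, was found for 25 of 46 (54.3%), against 38.2% of all genes. CCATNTT, the core of Yy1 sites, was found for 14 of 46 (30.4%), against 18.2% of all genes. These matches were counted over all annotated starts of a gene and describe sequence only.

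On all 6 arrays the ribosomal protein probesets were among the brightest. Of the 69 genes that passed the filter on dim probesets (at least 2 of 6 arrays at or above the array's median), between 31 and 34 lay above the 99th percentile of the array on their brightest probeset. The filter left 109 of the 112 probesets. The exceptions were Rpl32l, at 2.98 to 3.37 on the 6 arrays, and 2 of 3 probesets of Rps18. The brightest probeset of the whole set, for the stalk protein gene Rplp1, read 14.08 and 14.13 in DOX-7g, 14.15 and 14.09 in Dor-7g and 14.18 and 14.14 in D4-act-7g. Those values lie at the top of the arrays' range, whose highest value was 14.18. Rps12 and Rpl32 were the next brightest, at 13.92 to 13.99 and 13.61 to 13.99 over the 6 arrays. Brightness depends on the probes as well as on the mRNA, so differences in level between genes are not read as differences in abundance.

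Library-wide facts that touch these results were few. Dor-7g replicate 1 stood apart: its median over all probesets was 4.87, against 4.62 to 4.67 on the other 5 arrays. Over all probesets it correlated at 0.919 with Dor-7g replicate 2 and at 0.899 to 0.906 with the arrays of the other groups (Pearson). Dor-7g replicate 2 correlated at 0.937 to 0.950 with the arrays of the other groups, more closely than with its own replicate. The replicates correlated at 0.969 in DOX-7g and 0.978 in D4-act-7g. The trophectoderm keratin gene Krt18 read 12.81 to 13.37 on all arrays, and 6 or 7 of 7 trophectoderm markers lay at or above the array's median. The 5 measured blood markers summed to a linear signal of 2084 to 2900 in DOX-7g and 214 to 286 in Dor-7g, against 76.6 to 92.4 in D4-act-7g, with 4, 2, and 0 or 1 of them at or above the array's median. Among the blood markers S100a8 read 10.91 and 10.12 in DOX-7g, whereas Ptprc read 3.57 to 3.82 on all arrays. The uterine stroma gene Dcn read 9.29 on Dor-7g replicate 2 and 3.67 to 4.22 on the other 5 arrays. Lum was highest there too, at 5.01, but Col1a1, Col3a1, Hand2 and Pgr lay within the range of the other arrays. The mean of 6 epiblast markers was 5.55 and 5.57 in DOX-7g, 6.24 and 6.27 in Dor-7g and 6.26 and 6.08 in D4-act-7g. The part of these markers in the results below was not tested.

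Dor-7g was set against D4-act-7g to ask how the ribosomal protein genes stand in blastocysts dormant in vivo. Most of them were a little lower, and some much lower: 17 of 69 genes had a difference of -1 log2 unit or less and none of 1 or more. Of all 14020 genes, 912 lay at -1 or less and 324 at 1 or more. Rps16, Rpl34, Rps29 and Rpl26 fell, and no gene rose (limma, Benjamini-Hochberg adjusted over 14020 genes, threshold 0.05). These 4 of 69 genes stand beside 0.984% of all genes called in this comparison, and 0.742% called lower. The median difference was -0.17 over the 69 genes, against 0.06 over all genes, and 52 of the 69 were below 0. In bulk RNA of this kind, fewer cells that express a gene and less of its mRNA per cell cannot be told apart.

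Rps16 encodes a small-subunit protein whose tail touches the tRNA in the peptidyl site. It read 5.46 and 5.86 in Dor-7g, against 9.02 and 8.59 in D4-act-7g. Both Dor-7g arrays lay well below both D4-act-7g arrays. The difference was -3.15 ± 0.41 (SE; limma, adjusted p = 0.0375). The call was lost without Dor-7g replicate 1 (adjusted p = 0.077), without D4-act-7g replicate 1 (0.273) or 2 (0.184) and with arrays centred on their medians (0.0536), with array weights (0.102) or with replicate number as a block (0.0626).

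Rpl34, a large-subunit protein gene, read 7.65 and 8.10 in Dor-7g, against 10.93 and 10.43 in D4-act-7g. Again the groups did not overlap, and the gap between them was several times the gap within either. The difference was -2.80 ± 0.27 (SE; limma, adjusted p = 0.0131). Of 16 alternatives, 14 kept this call, and it was lost without D4-act-7g replicate 1 (adjusted p = 0.125) or 2 (0.0819).

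Rps29 encodes a small zinc-binding protein of the small subunit. It read 10.36 and 10.27 in Dor-7g, against 12.67 and 12.08 in D4-act-7g. The Dor-7g arrays nearly coincided and both lay below D4-act-7g. The difference was -2.07 ± 0.24 (SE; limma, adjusted p = 0.0257), a call lost without either DOX-7g array or with only these 4 arrays in the fit (adjusted p = 0.083), with array weights (0.0848), and without D4-act-7g replicate 1 (0.155) or 2 (0.0829).

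Rpl26 encodes a large-subunit protein beside the exit tunnel of the growing peptide. It read 7.90 and 7.92 in Dor-7g, against 9.35 and 9.39 in D4-act-7g. Within each group the arrays lay a few hundredths of a log2 unit apart. The difference was -1.46 ± 0.16 (SE; limma, adjusted p = 0.0229), a call lost without either DOX-7g array or with only these 4 arrays in the fit (adjusted p = 0.0808), with the trend and robust options (0.0592), with the replicate block (0.0679) and without D4-act-7g replicate 1 (0.217) or 2 (0.207).

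Across the set, both Dor-7g arrays lay below both D4-act-7g arrays for 36 of 69 genes, against 21.5% of all genes, and above them for 4 of 69, against 24.3% of all genes. The 4 were Rpl3l, Rps28, Rps3a1 and Rpl23a, with differences of 0.60, 0.20, 0.16 and 0.10 log2 units that did not pass the test. Rps23, of the decoding centre, read 8.07 and 8.59 in Dor-7g, against 10.54 and 9.98 in D4-act-7g. Its difference of -1.93 ± 0.28 missed the threshold (SE; limma, adjusted p = 0.0515) and passed it after a second quantile normalization (0.049) and with the filter on the mean (0.0499). Without Dor-7g replicate 2 the difference was -2.19, but that fit leaves 1 Dor-7g array.

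**Figure D1:**
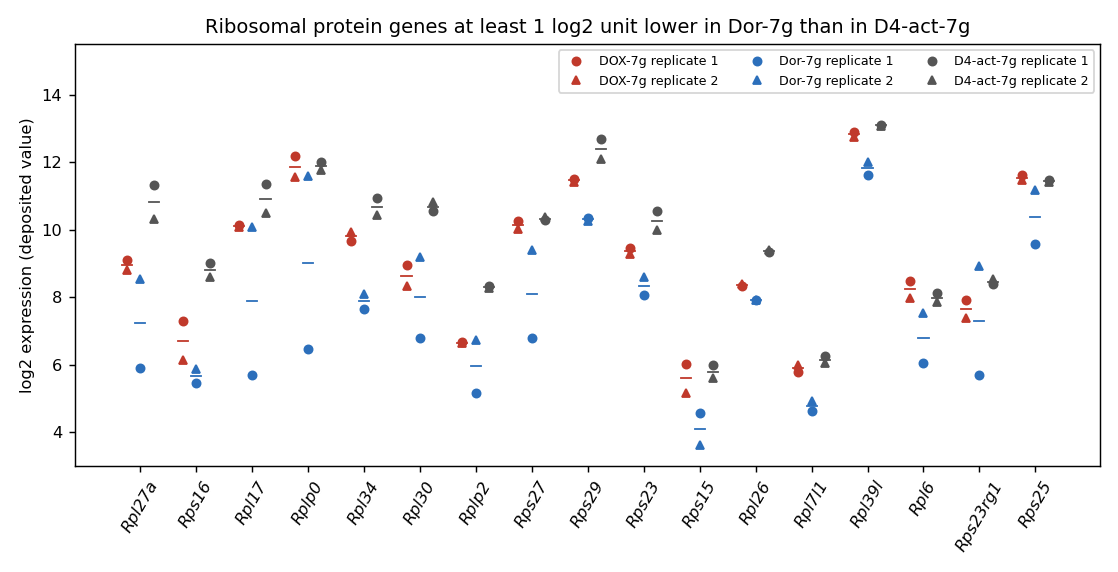
Deposited log2 expression (vertical axis) of the 17 ribosomal protein genes whose Dor-7g mean lay at least 1 log2 unit below their D4-act-7g mean, in order of that difference, on each of the 2 arrays of DOX-7g, Dor-7g and D4-act-7g; short lines are group means of 2 arrays. The Dor-7g arrays of Rps16, Rpl34, Rps29 and Rpl26 lie close together, whereas replicate 1 minus replicate 2 of Dor-7g was -5.12 for Rplp0, -4.39 for Rpl17 and -2.65 for Rpl27a.

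Many of the larger differences rested on 1 of the Dor-7g arrays. In 12 of 69 genes Dor-7g replicate 1 lay at least 1 log2 unit below replicate 2 (17.4%), against 8.10% of all genes; in D4-act-7g and in DOX-7g no gene of the set had replicate 1 that far below replicate 2. Rplp0, the base of the stalk that recruits elongation factors, read 6.46 and 11.58 in Dor-7g, against 11.99 and 11.77 in D4-act-7g. Only replicate 1 was far from D4-act-7g. Rpl17, at the exit tunnel, read 5.69 and 10.08 in Dor-7g, against 11.34 and 10.48 in D4-act-7g. Rps27, a zinc-binding small-subunit protein, read 6.79 and 9.39 in Dor-7g, against 10.28 and 10.37 in D4-act-7g. For Rps27 both Dor-7g arrays were lower, though by very different amounts.

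The large-subunit genes Rpl27a and Rpl30 followed Rps27 in this. Rpl27a read 5.90 and 8.55 in Dor-7g, against 11.31 and 10.31 in D4-act-7g, a difference of -3.58 ± 0.85 that did not pass (SE; limma, adjusted p = 0.151). Rpl30 read 6.79 and 9.20 in Dor-7g, against 10.55 and 10.81 in D4-act-7g. Rplp2, a protein of the stalk itself, read 5.15 and 6.74 in Dor-7g, against 8.32 and 8.28 in D4-act-7g. On all 3 genes the nearer Dor-7g array was still more than 1 log2 unit below the lower D4-act-7g array. Of the 12 genes with the wide gap, replicate 2 lay below both D4-act-7g arrays in 10. Rps23rg1, a retroposed copy of Rps23, was an exception, at 5.68 and 8.91 in Dor-7g, against 8.38 and 8.53 in D4-act-7g.

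The number of calls turned on these arrays. Rplp2 differed by -1.56 without Dor-7g replicate 1 and by -3.15 without replicate 2, and Rps18 by 1.06 without replicate 2. Each of these fits leaves 1 Dor-7g array. Calls over all genes changed with the array left out, as did those of the set. Without either D4-act-7g array the calls of the set were lost, and without either DOX-7g array Rpl34 and Rps16 kept theirs. The median difference of the set was -0.10 without replicate 1 and -0.13 without replicate 2 of Dor-7g, against -0.03 and 0.12 over all genes.

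**Figure D2:**
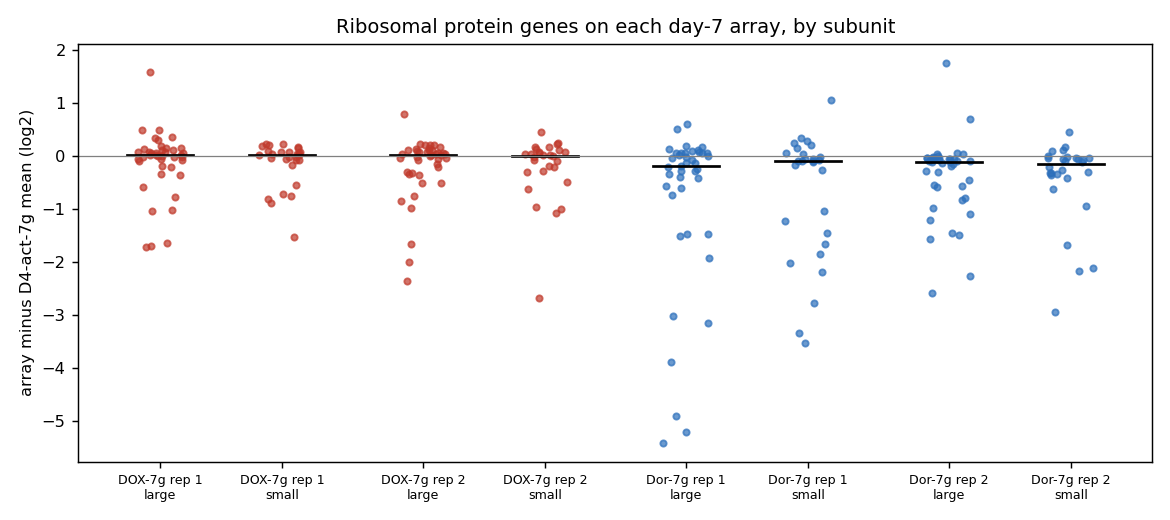
Difference of each of the 4 day-7 arrays from the mean of the D4-act-7g arrays (log2 units, vertical axis) for 41 large-subunit and 28 small-subunit genes, 1 point per gene, with the median as a black line. The medians lie between -0.19 and 0.03 on all 4 arrays. Genes 1 log2 unit or more below 0 number 20 on Dor-7g replicate 1 and 11 on Dor-7g replicate 2. The DOX-7g arrays have 6 and 5. Over all 14020 genes, 9.494% and 4.401% lie that far below on the Dor-7g arrays, and 2.924% and 4.037% on the DOX-7g arrays.

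Both subunits were compared on every array. Against the D4-act-7g mean, the median of the 41 large-subunit genes was 0.02 and 0.02 in DOX-7g and -0.19 and -0.10 in Dor-7g. That of the 28 small-subunit genes was 0.03 and 0.01 in DOX-7g and -0.09 and -0.15 in Dor-7g. Neither subunit was lower than the other on both Dor-7g arrays. On Dor-7g replicate 1, 10 of 41 large-subunit and 10 of 28 small-subunit genes lay 1 log2 unit or more below D4-act-7g. On replicate 2, 7 and 4 did. Over all 14020 genes, 9.494% did on replicate 1 and 4.401% on replicate 2. The larger number on replicate 1 was thus not particular to the ribosomal protein genes. Of the genes that fell, Rpl26 and Rpl34 belong to the large subunit and Rps16 and Rps29 to the small.

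The same probesets were read on every array, so the gap between the subunits' median brightness can be compared between arrays, though its size on 1 array has no meaning as abundance. For the 35 large-subunit and 24 small-subunit genes of the ribosome itself the gap, large minus small, was 0.12 and 0.15 in DOX-7g, 0.13 and 0.21 in Dor-7g and 0.08 and 0.07 in D4-act-7g. With the paralogs included, the gap was 0.12 and 0.16 in DOX-7g, 0.01 and 0.20 in Dor-7g and -0.48 and -0.27 in D4-act-7g. Its mean was thus higher by 0.52 in DOX-7g and by 0.48 in Dor-7g than in D4-act-7g, a separation that exact permutation of 2 arrays against 2 cannot place below its smallest two-sided p of 0.333. Over 63 large-subunit and 46 small-subunit probesets the groups overlapped. There the gap was -0.25 and -0.63 in DOX-7g, -1.05 and -0.41 in Dor-7g and -0.61 and -0.52 in D4-act-7g. The median changes of both subunits differed by only 0.01 in DOX-7g and -0.01 in Dor-7g against D4-act-7g (large minus small).

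The size of the difference varied with the brightness of the probeset, though not steadily from dim to bright. The limits of 8 and 12 log2 units used here for the mean over all 6 arrays were set after the values had been seen. That mean includes the Dor-7g arrays, so a fall in Dor-7g can itself move a gene to a lower band. Rps29, at 12.67 and 12.08 in D4-act-7g, had a mean of 11.38 and was counted between 8 and 12. The bands therefore cannot show how the difference depends on the level in D4-act-7g. Of 35 genes at 12 or above, the median difference in Dor-7g against D4-act-7g was -0.04, and only Rpl39l was 1 log2 unit or more below; over all 251 genes of that brightness the median was -0.03. Of 17 genes between 8 and 12, the median was -1.46 and 10 were 1 or more below, which is 58.8%, against a median of -0.31 and 21.6% over all 1626 genes. Of 17 genes under 8, the median was -0.57 and 6 were 1 or more below (35.3%), against 0.09 and 4.55% over all 12143 genes. Over every probeset of the set, the 25 between 8 and 12 had a median of -0.49, with 40% at -1 or less. The 33 under 8 had a median of -0.57, with 33.3% at -1 or less. On the deposited values, then, genes such as Rps6, the target of S6 kinase, at 13.46 and 13.50 in Dor-7g and 13.53 and 13.56 in D4-act-7g, showed next to no difference. Whether probesets near the top of an array's range show the full change was not tested.

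**Figure D3:**
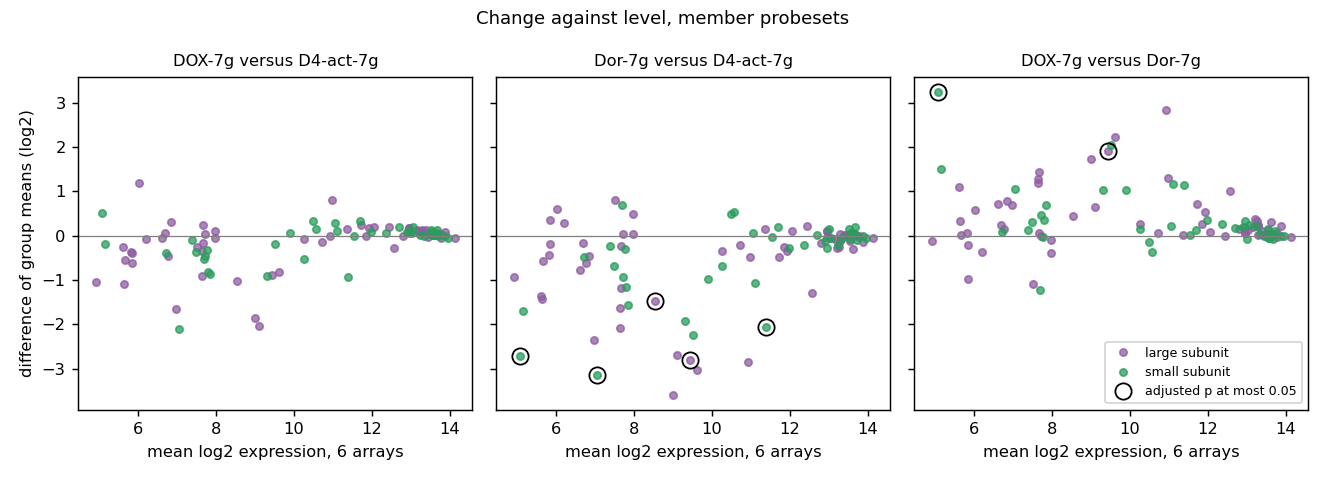
Difference of group means (log2 units, vertical axis) against mean log2 expression over 6 arrays (horizontal axis) for 109 probesets of ribosomal protein genes, in DOX-7g versus D4-act-7g, Dor-7g versus D4-act-7g and DOX-7g versus Dor-7g; purple marks the large and green the small subunit, and circles mark probesets past the adjusted threshold of 0.05. Above 12 the points lie near 0 in all 3 comparisons except Rpl39l, at -1.28 in Dor-7g versus D4-act-7g and 1.01 in DOX-7g versus Dor-7g, and the differences of Dor-7g spread downwards below 12. The horizontal mean includes the Dor-7g arrays, so a fall there also moves a point to the left.

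The same contrast showed within single genes. For 24 genes the array held at least 2 distinct probesets past the filter. The brightest of them had, in Dor-7g against D4-act-7g, a median difference of -0.03 and the dimmest one of -0.37, and the dimmest lay below the brightest in 16 of 24. Fau, whose product is a ubiquitin-like protein fused to a small-subunit protein, is an example. Its bright probeset read 13.67 and 13.65 in Dor-7g, against 13.73 and 13.77 in D4-act-7g. Its dim probeset read 7.03 and 7.18 in Dor-7g, against 8.78 and 8.55 in D4-act-7g. Only the dim one separated the groups by more than 1 log2 unit.

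Rpl27 behaved likewise, with 7.14 and 5.94 in Dor-7g, against 8.67 and 8.59 in D4-act-7g, on the dim probeset, and 13.12 and 13.71 against 13.75 and 13.69 on the bright one. The dim probeset of Rps20, a protein of the small subunit's head, read 2.53 and 3.62 in Dor-7g, against 5.72 and 5.88 in D4-act-7g. Both Dor-7g values lay below the array's median, so they give no exact level, and the probeset passed the filter through the other groups alone. When every probeset was fitted on its own, this probeset of Rps20 differed by -2.72 ± 0.38 (SE; limma, adjusted p = 0.0458) beside the 4 genes named above, so that 5 of 109 probesets passed, against 1.00% of all 14740. Without the filter its call was lost (adjusted p = 0.0507 by limma), and the size of its difference is uncertain. The other probeset of Rps20 had a difference of -0.22. The reverse case was Rplp0, whose bright probeset differed by -2.86 and whose dim one by 0.03. Rps28 went the other way, with 0.70 on the dim and 0.20 on the bright probeset, neither past the threshold.

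**Figure D4:**
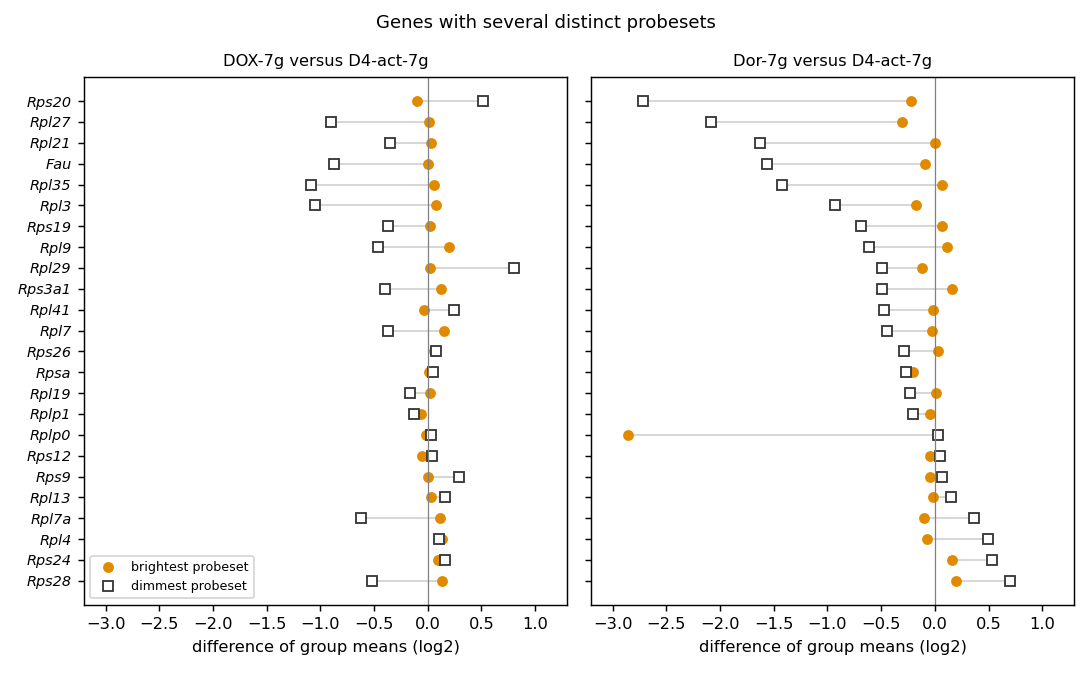
Difference of group means (log2 units, horizontal axis) for the brightest (filled circle) and the dimmest (open square) distinct probeset of each of 24 ribosomal protein genes, in DOX-7g versus D4-act-7g and Dor-7g versus D4-act-7g; each line joins the probesets of 1 gene. The brightest probesets lie between -0.31 and 0.20 in Dor-7g versus D4-act-7g except that of Rplp0, while 5 of the dimmest lie at -1 or below.

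DOX-7g was set against D4-act-7g to ask the same of blastocysts in let-7-induced dormancy in vitro. No ribosomal protein gene passed the threshold over all genes (limma, 0 of 69, against 0.956% of all genes). An unadjusted p under 0.05 was found for 8 of 69 genes, against 1544 of all 14020 genes (limma). The median difference was 0.01, against -0.05 over all genes, and 32 of 69 genes were below 0. A difference of -1 or less was found for 5 genes, and of 1 or more for 1, Rpl3l. Both DOX-7g arrays lay below both D4-act-7g arrays in 20 of 69 genes (30.5% of all genes did) and above them in 24 (19.2% of all genes did).

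The lowest values were those of genes that were also low in Dor-7g, which shares the D4-act-7g arrays with this comparison. Rps16 read 7.29 and 6.13 in DOX-7g, against 9.02 and 8.59 in D4-act-7g, a difference of -2.10 ± 0.41 (SE; limma, adjusted p = 0.118). Rpl30, which binds its own transcript in yeast, read 8.96 and 8.31 in DOX-7g, against 10.55 and 10.81 in D4-act-7g. Rplp2 read 6.67 and 6.63 in DOX-7g, against 8.32 and 8.28 in D4-act-7g, and the arrays of each group nearly coincided. Its difference was -1.65 ± 0.49 (SE; limma, adjusted p = 0.289). Rpl26 read 8.33 and 8.39 in DOX-7g, against 9.35 and 9.39 in D4-act-7g, a difference of -1.01 ± 0.16 (SE; limma, adjusted p = 0.0708).

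With only the DOX-7g and D4-act-7g arrays in the fit, or without either Dor-7g array, which enter this comparison through the spread alone, 3 genes passed, all lower: Rplp2 (limma, adjusted p = 0.0134), Rpl30 (0.0403) and Rpl26 (0.0429). With array weights Rpl26, Rplp2 and Rps16 passed (0.0172, 0.0351 and 0.0409). Calls over all genes rose in these settings as well. The Dor-7g arrays are the most widely spaced of the 3 groups, with a median absolute difference of 0.23 log2 units between replicates over the 69 genes, against 0.09 in DOX-7g and 0.06 in D4-act-7g. Rpl27a read 9.11 and 8.80 in DOX-7g, against 11.31 and 10.31 in D4-act-7g, and did not pass (limma, adjusted p = 0.527). On the other side, Rpl3l, the paralog of Rpl3 known from striated muscle, read 7.01 and 6.22 in DOX-7g, against 5.37 and 5.46 in D4-act-7g, a difference of 1.20 ± 0.29 that did not pass (SE; limma, adjusted p = 0.187). Rps18, Rps4x, Rpl9 and Rps13 lay above D4-act-7g on both arrays by 0.34, 0.20, 0.20 and 0.20, below the threshold as well.

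DOX-7g was then set against Dor-7g to ask whether both kinds of dormant blastocyst differ. Rpl34 was higher in DOX-7g, at 9.67 and 9.93, against 7.65 and 8.10 in Dor-7g, a difference of 1.92 ± 0.27 (SE; limma, adjusted p = 0.0401). An unadjusted p under 0.05 was found for 12 of 69 genes, against 1624 of all 14020 genes (limma). Rpl34 was the only gene of 69 past the threshold, against 1.16% of all genes and 1.04% called higher. The call was lost in 10 of 16 alternatives, with adjusted p between 0.0195 and 0.237 over all of them, and without each single array but Dor-7g replicate 2. Without that array the difference of Rpl34 was 2.14, but that fit leaves 1 Dor-7g array, and calls over all genes changed with the array left out too.

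The median difference was 0.21, against -0.11 over all genes, with 14 of 69 genes below 0 and 14 at 1 or above. Of all 14020 genes, 8815 were below 0 and 765 at 1 or above. Both DOX-7g arrays lay above both Dor-7g arrays in 31 of 69 genes, against 15.0% of all genes, and below them in 2, Rpl39 and Rpl22, against 26.7% of all genes. Rpl39 read 7.12 and 7.00 in DOX-7g, against 7.19 and 9.09 in Dor-7g, so its difference of -1.08 ± 0.64 rested on 1 array (SE; limma, adjusted p = 0.547). Rps15, near the decoding centre, read 6.02 and 5.16 in DOX-7g, against 4.55 and 3.62 in Dor-7g, where both values lay below the array's median. Rpl6 read 8.47 and 7.99 in DOX-7g, against 6.06 and 7.54 in Dor-7g. With every probeset fitted on its own, the dim probeset of Rps20 passed too, at 6.50 and 6.13 in DOX-7g, against 2.53 and 3.62 in Dor-7g, a difference of 3.24 ± 0.38 (SE; limma, adjusted p = 0.0209). That made 2 of 109 probesets, against 1.19% of all, and here too the Dor-7g values lay below the array's median, so the size is uncertain.

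Set side by side, the Dor-7g mean was the lowest of the 3 group means in 47 of 69 genes. The order Dor-7g below DOX-7g below D4-act-7g held in 24 of 69. The shares over all genes were not counted. Of the 17 genes at least 1 log2 unit lower in Dor-7g than in D4-act-7g, the DOX-7g mean lay between both in 15. Those 17 were picked for the distance between the outer groups, so this count is no evidence of an order. For Rpl34 the group means were 9.80 ± 0.19 in DOX-7g, 7.88 ± 0.31 in Dor-7g and 10.68 ± 0.36 in D4-act-7g (SD, n = 2 arrays each). For Rps29 they were 11.46 ± 0.06 in DOX-7g, 10.31 ± 0.06 in Dor-7g and 12.38 ± 0.41 in D4-act-7g (SD, n = 2 arrays each). Of the 17, the genes without such an order were Rpl6 and Rps25, whose DOX-7g means of 8.23 and 11.54 lay above those of D4-act-7g, 7.98 and 11.43.

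Of the 11 genes that are paralogs, copies or proteins of a related name, none passed in any comparison. Of the 10 tested, 1, 2 and 3 had an unadjusted p under 0.05 in DOX-7g versus D4-act-7g, Dor-7g versus D4-act-7g and DOX-7g versus Dor-7g (limma). Of all 14020 genes, 1544, 1998 and 1624 did, in the same order. Rpl39l, the paralog of Rpl39 known from male germ cells, read 12.90 and 12.74 in DOX-7g, 11.62 and 12.01 in Dor-7g and 13.11 and 13.07 in D4-act-7g. It was bright on every array, and Dor-7g lay below both other groups without overlap. Its difference of -1.28 ± 0.20 in Dor-7g against D4-act-7g missed the threshold (SE; limma, adjusted p = 0.0634) and passed it with the trend and robust options (0.0259). Without Dor-7g replicate 2 the difference was -1.48, but that fit leaves 1 Dor-7g array. Rpl7l1, a nucleolar protein of large-subunit assembly, read 5.78 and 5.997 in DOX-7g, 4.63 and 4.93 in Dor-7g and 6.24 and 6.04 in D4-act-7g. Its difference in Dor-7g against D4-act-7g, -1.36 ± 0.20, missed the threshold (SE; limma, adjusted p = 0.0546) and passed it with the trend and robust options (0.0415). Without Dor-7g replicate 2 the difference was -1.51, but that fit leaves 1 Dor-7g array. On Dor-7g replicate 1 Rpl7l1 lay below the array's median of 4.87, so the size of its difference is uncertain.

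Rps27l, the p53-induced paralog of Rps27, read 12.51 and 12.46 in DOX-7g, 12.33 and 12.10 in Dor-7g and 12.36 and 12.49 in D4-act-7g. Rpl22l1 read 6.50 and 5.63 in DOX-7g, 6.75 and 6.10 in Dor-7g and 6.16 and 6.11 in D4-act-7g. Rps19bp1, a partner of Rps19, read 9.90 and 10.36 in DOX-7g, 9.61 and 10.34 in Dor-7g and 10.67 and 10.63 in D4-act-7g. Rps27l overlapped between DOX-7g and D4-act-7g and lay slightly lower in Dor-7g, Rpl22l1 overlapped in every comparison, and Rps19bp1 was lower on all 4 day-7 arrays than on both D4-act-7g arrays. Rpl10l, Rpl6l and Rps4l ranged from 9.85 to 10.57, from 11.57 to 12.20 and from 7.35 to 8.13 over the 6 arrays.

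Rpl11 and Rpl5, large-subunit proteins known to bind Mdm2, had dim probesets. Rpl11 read 5.44 and 5.51 in DOX-7g, 5.47 and 5.45 in Dor-7g and 6.58 and 5.48 in D4-act-7g, so that D4-act-7g replicate 1 alone stood apart. Rpl5 read 6.55 and 7.10 in DOX-7g, 6.15 and 6.08 in Dor-7g and 6.87 and 6.90 in D4-act-7g. Dor-7g lay below both other groups, without passing the threshold against D4-act-7g (limma, adjusted p = 0.224). Rpsa, a small-subunit protein also known as a laminin receptor, had a bright probeset at 13.24 and 13.40 in DOX-7g, 13.26 and 12.96 in Dor-7g and 13.40 and 13.23 in D4-act-7g, and its groups overlapped.

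Other parts of the translation machinery were set beside the ribosomal proteins. Of 71 mitochondrial ribosomal protein genes, which serve the separate ribosome of mitochondria, none passed in any comparison (limma). An unadjusted p under 0.05 was found for 28 in Dor-7g versus D4-act-7g, 4 in DOX-7g versus D4-act-7g and 16 in DOX-7g versus Dor-7g (limma). Of all 14020 genes, 1998, 1544 and 1624 had one, in the same order. The median difference of the 71 genes was -0.59 in Dor-7g versus D4-act-7g, with 61 below 0 (85.9%, against 43.3% of all genes). It was -0.23 in DOX-7g versus D4-act-7g, with 57 below 0 (80.3%, against 58.0% of all genes). These counts over all genes also stand beside the lists below. Whether the lists differ was not tested.

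Of 21 tested non-ribosomal genes with TOP mRNAs, Eef2, the elongation factor that moves the ribosome along the mRNA, was higher in DOX-7g than in Dor-7g. It read 9.10 and 8.92 in DOX-7g and 7.77 and 7.73 in Dor-7g, a difference of 1.26 ± 0.17 (SE; limma, adjusted p = 0.0401). No other gene of that list passed in any comparison (limma; 1, 3 and 4 had an unadjusted p under 0.05 in DOX-7g versus D4-act-7g, Dor-7g versus D4-act-7g and DOX-7g versus Dor-7g), and the medians were 0.08 in DOX-7g versus D4-act-7g, -0.14 in Dor-7g versus D4-act-7g and 0.35 in DOX-7g versus Dor-7g. None passed in any comparison among 27 genes for carriers of ribosomal proteins and assembly factors, 18 for regulators of ribosomal protein mRNAs and 21 for partners of the translating ribosome, with medians in Dor-7g versus D4-act-7g of -0.21, -0.25 and -0.31 and in DOX-7g versus D4-act-7g of -0.12, -0.27 and -0.23 (limma; 5, 1 and 5 had an unadjusted p under 0.05 in Dor-7g versus D4-act-7g, 1, 1 and 6 in DOX-7g versus D4-act-7g, and 6, 1 and 1 in DOX-7g versus Dor-7g).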

How the data were processed

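Expression was measured on 6 arrays, 2 per group, and the number of arrays limits the precision. The authors deposited log2 values as a series table, made with RMA and Partek 6.6 per the submitters' processing notes, which name no genome build. Values ran from 1.52 to 14.18. Of 41345 probesets, 23521 had 1 symbol in the platform annotation, 1814 had several and 16010 are unnamed here; 193 Entrez identifiers had no match in the RefSeq gene table and kept their symbols.

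Probesets under the array's median on 5 or more of 6 arrays were left out, and each gene was represented by its brightest probeset. Differences were fitted with limma 3.58.1 in R 4.3.3 (lmFit and eBayes, 1 mean per group, 3 residual degrees of freedom), with Benjamini-Hochberg adjustment over all 14020 genes. On simulated data the fit recovered 10% to 26% of rises of 1 log2 unit and 84% to 88% of rises of 2, so changes near 1 can be missed. It also called unchanged genes: 3 in DOX-7g versus D4-act-7g, 10 in Dor-7g versus D4-act-7g and 32 in DOX-7g versus Dor-7g. Alternatives were a second quantile normalization, arrays centred on medians, no filter, a filter on the mean, every probeset, trend and robust options, array weights, replicate number as a block, only the groups compared, leaving out each array, and the dimmest probeset per gene, which was chosen after seeing the data.

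Members and lists were chosen with earlier results of these data known. Genes named are those past the threshold, the 5 largest differences each way without overlap per comparison, those with the widest replicate gaps (5 in Dor-7g, 3 in each other group), the 3 brightest and 3 dimmest, some of those whose probesets differ by 1 log2 unit or more, stalk proteins, Rpsa, Fau and paralogs. Among genes whose probesets differ that much, Rpl3, Rpl7a, Rpl21, Rpl29 and Rpl35 are not described. Rps6, Rps23, Rps25 and Rpl5 were named after their values were seen.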

Additional observations from a re-analysis of the deposited data

Results flagged for a closer look

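In the test of DOX-7g against Dor-7g over genes, Rpl34 alone of the ribosomal protein genes passed, with a difference of 1.92 log2 units, higher in both DOX-7g arrays than in both Dor-7g arrays (limma, adjusted p = 0.0401), and the call was lost in 10 of 16 alternatives. When every probeset was fitted on its own, the dim probeset of Rps20 passed as well, at 3.24 log2 units (limma, adjusted p = 0.0209). Its Dor-7g values of 2.53 and 3.62 lay below the array's median and it passed the filter through the other groups, so the size of that difference is uncertain. The bright probeset of Rps20 differed by 0.12 and did not pass.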

How the results depend on the processing

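None of the ribosomal protein genes called in the main fit changed sign between the settings tried. Others could: in Dor-7g versus D4-act-7g, Rplp0 differed by -5.42 without Dor-7g replicate 2 and by 0.03 with its dimmest probeset. The median difference of the ribosomal protein genes in DOX-7g versus D4-act-7g, 0.01, was -0.02 after a second quantile normalization and -0.06 with the dimmest probeset. Large minus small subunit median changes, all near 0, took either sign over the settings: -0.09 to 0.03 in DOX-7g versus D4-act-7g, -0.11 to 0.05 in Dor-7g versus D4-act-7g and -0.03 to 0.14 in DOX-7g versus Dor-7g. In DOX-7g versus D4-act-7g, 134 genes were called, against 461 with array weights, 296 with only these groups in the fit and 43 to 296 without 1 array; ribosomal protein genes called were 0, against 3, 3 and 0 to 3. In Dor-7g versus D4-act-7g, 138 genes were called, against 79 with array weights, 86 with only these groups and 11 to 1172 without 1 array; ribosomal protein genes called were 4, against 2, 2 and 0 to 18. In DOX-7g versus Dor-7g, 163 genes were called, against 104, 86 and 67 to 880; ribosomal protein genes called were 1, against 0, 0 and 0 to 13, with 0 after a second quantile normalization or centring and 2 with every probeset or the dimmest one. The median difference of the ribosomal protein genes in Dor-7g versus D4-act-7g was -0.29 with arrays centred on their medians, where that of all genes was -0.07, and -0.35 with the dimmest probeset. In DOX-7g versus Dor-7g it was 0.34 with centring, where that of all genes was 0.02. The causes of these changes were not tested, and the smaller fits also hold fewer arrays.

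Replicate numbers did not pair the arrays (correlations of same-numbered deviations of -0.14, -0.01 and -0.02). With the replicate block, Dor-7g versus D4-act-7g had 82 genes and 2 ribosomal protein genes called, and DOX-7g versus Dor-7g had 0 ribosomal protein genes called. With 2 arrays a group, the Dor-7g arrays' spacing and probesets near the top or bottom of the range limit what can be seen.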
